A study of Mus musculus with 24 samples.

Results

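The genes described here are 10 neutrophil and alarmin genes of the mouse: the alarmins S100a8 and S100a9, the granule proteins Ltf, Mmp8, Camp and Ngp, the secreted protein Retnlg, and the receptors Csf3r, Fpr1 and Cxcr2. They were found by their gene names among 28104 named genes on the array, and 12 of its 41174 probes carry them. Of the 10 genes, 9 passed the filter on dim probes, as did 20565 of all genes, and were tested; Ngp did not pass. Expression was measured in the oesophagus of Nrf2-/- mice and of wild-type mice. Nrf2 is the transcription factor encoded by Nfe2l2. In each genotype the groups were gastric, duodenal or mixed reflux for 4 weeks, and no reflux. All mice were labelled as male C57BL/6J animals 12 weeks of age. Each of the 8 groups held 3 arrays, called biological replicates. The tissue field of the labels gives whole oesophagus for 7 groups and oesophageal epithelium for Nrf2-/- mixed reflux, while the source names give epithelium for all. The labels used here do not say how reflux was produced, or which part of Nfe2l2 was removed. A value below is a log2 ratio of oesophageal RNA to a common reference RNA from 11 mouse cell lines, unless called a difference, and it compares arrays for 1 gene, not genes with each other.

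Neutrophils are short-lived white blood cells that leave the blood for injured or infected tissue. Chemokines that act on the receptor CXCR2 and the growth factor G-CSF, which acts on the receptor encoded by Csf3r, govern their release and recruitment. S100A8 and S100A9 pair to form calprotectin, which binds metal ions, is abundant in neutrophils and is released as an alarmin, a signal of damage; squamous keratinocytes under stress make both proteins too. In whole tissue, more neutrophils and more RNA per neutrophil cannot be told apart.

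Several arrays need to be known before the results. Nfe2l2 lay between -3.81 and -2.83 on the 12 Nrf2-/- arrays. It lay between 1.45 and 2.18 on 10 wild-type arrays, the spots of the other 2 having been marked as outliers. The 3 Nrf2-/- mixed reflux arrays were closer to each other than repeat spots on 1 array (variance ratio 0.524 to 0.721, against 1.37 to 53.5 for 21 pairs within other groups), so they differed by less than the measuring noise and were counted as 1 sample, which leaves that group no spread of its own. Nrf2-/- gastric replicate 2 is labelled male, but had Xist at -1.78 and Ddx3y at -4.20, against -4.67 or less and 0.16 or more on the other 23 arrays. Cy5 signal was low on Nrf2-/- gastric replicate 1, Nrf2-/- duodenal replicate 2 and both arrays of slide 1, which are wild-type replicates 1 and 2 without reflux and were scanned on a day of their own. Wild-type mixed reflux replicate 2 stood apart from the other 2 arrays of its group in most of the genes below. Squamous keratin genes (Krt4, Krt13, Krt5, Krt14), smooth muscle Myh11 and skeletal muscle Ckm were well above background on all 24 arrays, so muscle was present also where the label reads epithelium. Elane, the neutrophil elastase gene made mainly in marrow precursors, was above background on 0 of 24 arrays, while the precursor granule genes Mpo, Ctsg and Prtn3 were on 23, 24 and 17.

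S100a8 and S100a9 lie close together on chromosome 3, on opposite strands (probes at chr3:90473778-90473837, plus strand, and chr3:90496585-90496644, minus strand, mm9), and were well above background on all 24 arrays. Their upstream sequences are shown because both genes encode alarmins. Over the arrays they correlated at r = 0.87 (n = 20 samples that share a reference RNA, given as a description). S100a8 was closer to Ltf (0.95), and S100a9 to Ltf and Csf3r (0.91 each). The 250 bases before each start come from RefSeq, build GRCm38.p6, and read 5′ to 3′ on the strand of the gene. Capitals mark matches on either strand to TTNNGNAA, a C/EBP-type motif, or GAGGAAG, a PU.1-type motif.
S100a8, chr3:90668821-90669070, plus strand: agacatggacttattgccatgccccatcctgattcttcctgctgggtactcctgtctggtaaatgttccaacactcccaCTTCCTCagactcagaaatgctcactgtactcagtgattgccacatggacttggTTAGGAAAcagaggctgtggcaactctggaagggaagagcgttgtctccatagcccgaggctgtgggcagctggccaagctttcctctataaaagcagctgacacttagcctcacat
S100a9, chr3:90695722-90695971, minus strand: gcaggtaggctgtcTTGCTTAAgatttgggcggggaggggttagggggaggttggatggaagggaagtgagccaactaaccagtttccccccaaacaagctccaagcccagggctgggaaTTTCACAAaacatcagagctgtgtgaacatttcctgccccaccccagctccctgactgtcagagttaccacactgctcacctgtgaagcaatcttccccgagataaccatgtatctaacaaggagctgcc

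The C/EBP-type letters occurred once before S100a8, at 117 bases from the start, and at 236 and 130 bases before S100a9. Over the same window they were found for 7 of the 10 genes, against 36.9% of 27025 mouse promoters. The PU.1-type letters were found for 3 of 10 (S100a8, Csf3r and Mmp8), against 10.4%. An NF-kB-type motif, GGG and CC spaced by 5 bases, was found for 3 of 10 (Ltf, Csf3r and Cxcr2), against 45.4%, and TGACNNNGC, the core of an Nrf2-type motif, for 0 of 10, against 10.1%. No match overlapped one of another motif in the 2 sequences shown. A match describes letters only.

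S100a8 was the gene with the largest response to duodenal reflux among the 9 tested, in both genotypes. Its ratios were 2.65, 3.23 and 1.49 in Nrf2-/- gastric, 7.94, 8.62 and 7.90 in Nrf2-/- duodenal, 7.88, 7.85 and 7.78 in Nrf2-/- mixed reflux, and 0.29, 0.12 and 1.18 in Nrf2-/- mice without reflux. In the wild type they were 0.30, -0.98 and -0.24 with gastric, 7.80, 7.76 and 7.67 with duodenal and 2.94, 7.18 and 2.84 with mixed reflux, and -0.05, -0.13 and -0.55 without reflux. All arrays of duodenal reflux and of Nrf2-/- mixed reflux were high, wild-type mixed reflux held 1 high and 2 intermediate arrays, and Nrf2-/- gastric arrays lay above every wild-type gastric array. With duodenal reflux S100a8 rose by 7.62 ± 0.79 in Nrf2-/- mice (197-fold, adjusted p = 1.74e-05) and by 7.99 ± 0.79 in the wild type (254-fold, adjusted p = 3.21e-05), where ± is the standard error of the limma fit. With mixed reflux it rose by 7.30 ± 1.12 in Nrf2-/- mice (adjusted p = 0.00108) and by 4.56 ± 0.79 in the wild type (adjusted p = 0.0455).

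The genotypes differed in S100a8 under gastric reflux, by 2.77 ± 0.79 (6.80-fold higher in Nrf2-/-, adjusted p = 0.026). Under duodenal reflux the difference was 0.41 ± 0.79 (adjusted p = 0.819), at ratios near 8 in both genotypes. Under mixed reflux it was 3.51 ± 1.12 (adjusted p = 0.103), and without reflux 0.77 ± 0.79 (adjusted p = 0.86).

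S100a9 had high ratios in every group and moved over a narrower range. Nrf2-/- mice had 7.91, 6.40 and 6.38 with gastric, 8.16, 9.06 and 8.43 with duodenal and 7.70, 7.69 and 7.73 with mixed reflux, and 6.21, 5.91 and 6.03 without reflux. Wild-type mice had 6.29, 6.02 and 6.05 with gastric, 7.63, 7.41 and 7.65 with duodenal and 6.42, 7.20 and 6.70 with mixed reflux, and 6.24 on the only array without reflux that measured it, the spots on the other 2 having been marked as outliers. Duodenal arrays of Nrf2-/- mice lay above all other arrays, and the Nrf2-/- gastric array at 7.91 stood apart from its group. That array is replicate 1, of low Cy5 signal. It was also the highest of its group for Ltf, Mmp8, Camp, Retnlg, Csf3r and Fpr1. S100a9 rose 5.67-fold with duodenal reflux in Nrf2-/- mice (2.5 ± 0.34, adjusted p = 0.00022). The difference was 1.32 ± 0.48 in the wild type (adjusted p = 0.0956), against the 1 measured array without reflux. Nrf2-/- exceeded wild type by 0.78 ± 0.34, 0.99 ± 0.34 and 0.94 ± 0.48 under gastric, duodenal and mixed reflux. None passed the threshold (adjusted p = 0.118 and 0.146 for gastric and duodenal), and Nrf2-/- mixed reflux counts as 1 sample.

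**Figure D1:**
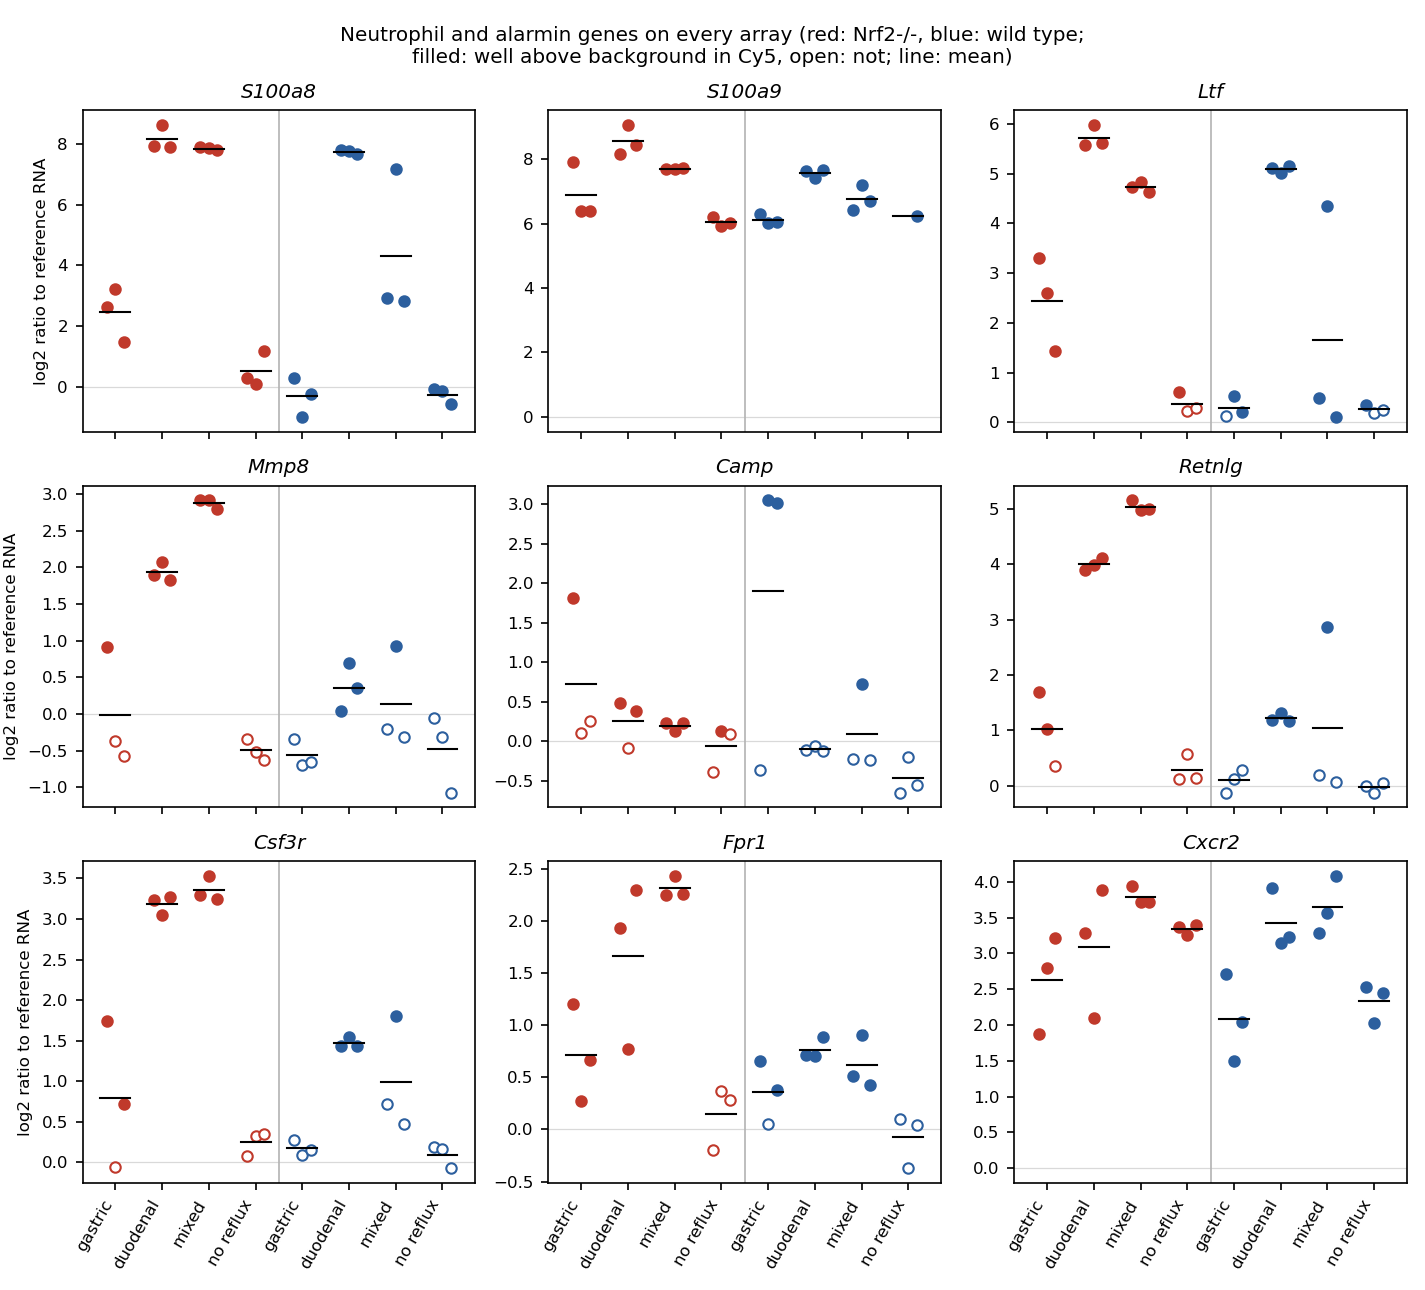
Log2 ratio to the reference RNA (vertical axis, a scale for each gene) of the 9 tested genes on all 24 arrays, with Nrf2-/- groups in red at left and wild-type groups in blue at right; lines are group means, filled points are well above background in Cy5 and open points are not. S100a8 and Ltf are high on all duodenal arrays of both genotypes, Retnlg, Csf3r and Mmp8 are higher on Nrf2-/- than on wild-type duodenal arrays, and the second wild-type mixed reflux array lies above the other 2 in every gene shown except Cxcr2.

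Ltf encodes lactoferrin, an iron-binding protein of secondary granules that also occurs in exocrine secretions (probe at chr9:110942873-110942932, plus strand, mm9). Its ratios were 3.31, 2.60 and 1.43 in Nrf2-/- gastric, 5.58, 5.98 and 5.62 in Nrf2-/- duodenal, 4.73, 4.83 and 4.64 in Nrf2-/- mixed reflux and 0.62, 0.22 and 0.30 in Nrf2-/- mice without reflux. Wild-type arrays had 0.12, 0.53 and 0.20 with gastric, 5.12, 5.02 and 5.15 with duodenal and 0.50, 4.36 and 0.11 with mixed reflux, and 0.36, 0.18 and 0.25 without reflux. All duodenal and Nrf2-/- mixed reflux arrays were high, Nrf2-/- gastric arrays lay above all wild-type gastric arrays, and wild-type mixed reflux again held 1 high array, while its other 2 were near the level without reflux. Ltf rose with duodenal reflux by 5.35 ± 0.73 in Nrf2-/- mice (40.7-fold, adjusted p = 0.000137) and by 4.83 ± 0.73 in the wild type (28.5-fold, adjusted p = 0.000574). With mixed reflux it rose by 4.35 ± 1.03 in Nrf2-/- mice (adjusted p = 0.0193), and the wild-type difference was 1.39 ± 0.73 (adjusted p = 0.488). Under gastric reflux Ltf was 4.48-fold higher in Nrf2-/- than in wild-type mice (2.16 ± 0.73, adjusted p = 0.0487). The genotype difference under mixed reflux, 3.08 ± 1.03, did not pass (adjusted p = 0.119). The second Ltf probe gave differences of the same sign in all comparisons, with 1.43 for the genotypes under gastric reflux and 4.81 for duodenal reflux in Nrf2-/- mice.

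Mmp8 encodes neutrophil collagenase, stored in granules (chr9:7568238-7568297, plus strand, mm9). It had 0.91, -0.37 and -0.57 in Nrf2-/- gastric, 1.89, 2.07 and 1.83 in Nrf2-/- duodenal, 2.91, 2.91 and 2.80 in Nrf2-/- mixed reflux, and -0.34, -0.52 and -0.62 in Nrf2-/- mice without reflux. Wild-type ratios were -0.34, -0.69 and -0.66 with gastric, 0.04, 0.69 and 0.35 with duodenal and -0.20, 0.93 and -0.31 with mixed reflux, and -0.05, -0.31 and -1.07 without reflux. Only 11 arrays were well above background: all 9 of Nrf2-/- duodenal, Nrf2-/- mixed and wild-type duodenal reflux, and 1 each of Nrf2-/- gastric and wild-type mixed reflux. Mmp8 was higher in Nrf2-/- than in wild-type mice under duodenal reflux (1.57 ± 0.36, 2.97-fold, adjusted p = 0.0338) and under mixed reflux (2.73 ± 0.51, 6.63-fold, adjusted p = 0.00596). Against Nrf2-/- mice without reflux it was at least 4.18-fold higher with duodenal and at least 7.15-fold higher with mixed reflux (differences of ratios 2.42 ± 0.36 and 3.37 ± 0.51, adjusted p = 0.000291 and 0.000988). "At least" marks folds whose dimmer group had no array with the gene clearly over background. The Cy5 mean of the brighter group is then divided by a floor for the dimmer one, the mean over its arrays of the lowest clearly measured level or, where higher, the signal of the gene itself; such folds are open to dye bias, and those larger than the change in ratio are left out.

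Camp, the precursor of the antimicrobial peptide CRAMP, did not follow the other granule genes (chr9:109749992-109750051, minus strand, mm9). It had 1.81, 0.10 and 0.26 in Nrf2-/- gastric, 0.49, -0.09 and 0.38 in Nrf2-/- duodenal, 0.23, 0.13 and 0.23 in Nrf2-/- mixed reflux, and -0.39, 0.13 and 0.09 in Nrf2-/- mice without reflux. The wild type had -0.37, 3.05 and 3.02 with gastric, -0.11, -0.06 and -0.13 with duodenal and -0.23, 0.73 and -0.24 with mixed reflux, and -0.65, -0.20 and -0.55 without reflux. The high arrays were wild-type gastric replicates 2 and 3 and, below them, Nrf2-/- gastric replicate 1. The difference between gastric reflux and none in the wild type was 2.36 ± 0.65 (adjusted p = 0.0506), and Camp was lower with duodenal than with gastric reflux there, the 1 of 9 genes that was, against 9.77% of all genes tested (-2.0 ± 0.65, adjusted p = 0.0354). That call was lost without wild-type gastric replicate 2 or 3 or any wild-type duodenal array (adjusted p = 0.0805 to 0.19), and with scan day as a block (0.53). On the gastric arrays the mean ratio of 6 skeletal muscle genes moved with Camp: it was 6.29, 3.06 and 2.95 on Nrf2-/- gastric replicates 1, 2 and 3, and 1.16, 5.48 and 5.34 on wild-type gastric replicates 1, 2 and 3. The muscle mean was 4.42 to 4.79 with Nrf2-/- duodenal, 4.58 to 4.66 with Nrf2-/- mixed and 3.92 to 4.08 with wild-type duodenal reflux. Camp stayed between -0.13 and 0.49 there. The part of muscle in the Camp result was not tested.

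Ngp, neutrophilic granule protein, was well above background on 1 of 24 arrays, Nrf2-/- without reflux replicate 2, at 0.38, and was not tested (chr9:110324266-110324814, plus strand, mm9). Its ratios on the other 23 arrays ran from -0.20 to 0.52.

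Retnlg encodes a resistin-like protein secreted by neutrophils and marrow myeloid cells (chr16:48874468-48874527, plus strand, mm9), and it separated the genotypes most widely under duodenal and mixed reflux among the 9 genes. Nrf2-/- arrays had 1.69, 1.03 and 0.35 with gastric, 3.89, 3.98 and 4.12 with duodenal and 5.15, 4.97 and 5.0 with mixed reflux, and 0.13, 0.58 and 0.15 without reflux. Wild-type arrays had -0.12, 0.13 and 0.29 with gastric, 1.18, 1.32 and 1.17 with duodenal and 0.20, 2.87 and 0.07 with mixed reflux, and -0.01, -0.12 and 0.06 without reflux. Under duodenal and mixed reflux the lowest Nrf2-/- array lay above the highest wild-type array. No array without reflux and no wild-type gastric array was well above background, so the order of their values is not read. Retnlg was 6.82-fold higher in Nrf2-/- than in wild-type mice under duodenal reflux (2.77 ± 0.5, adjusted p = 0.00823) and 15.9-fold higher under mixed reflux (3.99 ± 0.71, adjusted p = 0.0042). For mixed reflux the error comes from the spread of the other groups, since the Nrf2-/- arrays count as 1 sample, and 1 of 3 wild-type mixed arrays was well above background for Retnlg, as for Mmp8 and Csf3r. The differences were 0.93 ± 0.5 under gastric reflux (adjusted p = 0.196) and 0.31 ± 0.5 without reflux (adjusted p = 0.92). Within Nrf2-/- mice it was at least 11.4-fold higher with duodenal reflux (3.71 ± 0.5, adjusted p = 0.000126) and was also higher with mixed reflux than without (4.75 ± 0.71, adjusted p = 0.000857). In the wild type the differences were 1.25 ± 0.5 with duodenal and 1.07 ± 0.5 with mixed reflux (adjusted p = 0.125 and 0.44).

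Csf3r encodes the G-CSF receptor, which drives the making and survival of neutrophils (chr4:125721294-125721353, plus strand, mm9). Its ratios were 1.74, -0.06 and 0.72 in Nrf2-/- gastric, 3.24, 3.05 and 3.27 in Nrf2-/- duodenal, 3.29, 3.53 and 3.25 in Nrf2-/- mixed reflux, and 0.08, 0.32 and 0.35 in Nrf2-/- mice without reflux. The wild type had 0.28, 0.09 and 0.15 with gastric, 1.43, 1.54 and 1.44 with duodenal and 0.72, 1.80 and 0.47 with mixed reflux, and 0.19, 0.16 and -0.07 without reflux. The duodenal arrays of the genotypes were separated by more than the spread within either. Csf3r was 3.29-fold higher in Nrf2-/- than in wild-type mice under duodenal reflux (1.72 ± 0.34, adjusted p = 0.0147) and 5.12-fold higher under mixed reflux (2.36 ± 0.48, adjusted p = 0.011). Against no reflux it was higher with duodenal reflux in Nrf2-/- mice (2.93 ± 0.34, adjusted p = 4.21e-05) and at least 2.32-fold higher in the wild type (1.38 ± 0.34, adjusted p = 0.0163). In the authors' deposited value table the wild-type difference had the opposite sign, -0.33.

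Fpr1, the receptor for formylated bacterial and mitochondrial peptides (chr17:18013609-18013668, minus strand, mm9), had 1.20, 0.27 and 0.67 in Nrf2-/- gastric, 1.93, 0.77 and 2.30 in Nrf2-/- duodenal, 2.25, 2.43 and 2.26 in Nrf2-/- mixed reflux, and -0.20, 0.37 and 0.28 in Nrf2-/- mice without reflux. The wild type had 0.66, 0.05 and 0.38 with gastric, 0.71, 0.70 and 0.89 with duodenal and 0.51, 0.91 and 0.43 with mixed reflux, and 0.10, -0.37 and 0.04 without reflux. The low Nrf2-/- duodenal array is the one of low Cy5 signal, and it overlapped the wild type. Fpr1 was higher in Nrf2-/- than in wild-type mice under mixed reflux (1.69 ± 0.45, 3.24-fold, adjusted p = 0.0454). Within Nrf2-/- mice it was at least 2.63-fold higher with duodenal and at least 3.34-fold higher with mixed reflux than without (1.52 ± 0.32 and 2.16 ± 0.45, adjusted p = 0.0033 and 0.00851).

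Cxcr2, the receptor for the neutrophil-recruiting chemokines, was well above background on all 24 arrays, and its order of groups was another one (chr1:74206886-74206945, plus strand, mm9). It had 1.88, 2.80 and 3.22 in Nrf2-/- gastric, 3.29, 2.10 and 3.88 in Nrf2-/- duodenal, 3.94, 3.72 and 3.72 in Nrf2-/- mixed reflux, and 3.37, 3.25 and 3.39 in Nrf2-/- mice without reflux. The wild type had 2.71, 1.5 and 2.04 with gastric, 3.91, 3.15 and 3.23 with duodenal and 3.28, 3.57 and 4.08 with mixed reflux, and 2.53, 2.02 and 2.44 without reflux. Wild-type arrays with duodenal or mixed reflux lay above those without reflux, by 1.1 ± 0.41 and 1.31 ± 0.41, short of the threshold (adjusted p = 0.102 and 0.264). The genotype difference without reflux was 1.01 ± 0.41 (adjusted p = 0.573). Between reflux types in the wild type Cxcr2 was higher with duodenal than with gastric reflux (1.35 ± 0.41, adjusted p = 0.0263) and with mixed than with gastric reflux (1.56 ± 0.41, adjusted p = 0.0267). Each was lost without wild-type gastric replicate 2 or 3, the first also without wild-type duodenal replicate 1 or 3 and the second without wild-type mixed replicate 1 or 3 (adjusted p = 0.052 to 0.144). A second Cxcr2 probe differed in sign in 1 comparison, gastric reflux in the wild type (0.06, against -0.25).

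The next paragraphs set the genes side by side for each comparison. Mmp8, Retnlg and Csf3r passed the filter through the 3 groups in which they were brightest, and Camp through Nrf2-/- mixed reflux alone. Ltf and Fpr1 passed it through the 5 reflux groups in which they were brightest, and through neither group without reflux. A count over the tested genes therefore describes them and supports nothing. The comparisons within a genotype share the arrays without reflux, and each genotype difference shares arrays with reflux comparisons.

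Without reflux, 0 of the 9 genes differed between Nrf2-/- and wild-type mice in the limma test (1 at an unadjusted p under 0.05), where 0.17% of all genes tested did. Under gastric reflux 2 of 9 were higher in Nrf2-/-, S100a8 and Ltf, against 10.5% of all genes, and the median difference was 0.63 against 0.11 over all genes. Under duodenal reflux 3 of 9 were higher, Retnlg, Csf3r and Mmp8, against 1.21% of all genes (median 0.90, against 0.05). Under mixed reflux 4 of 9 were higher, the same 3 genes and Fpr1, against 2.29% (median 2.36, against 0.01). As the mean of the 4 conditions 6 of 9 were higher, against 5.82%: Retnlg by 2.0 ± 0.28, S100a8 by 1.86 ± 0.44, Ltf by 1.5 ± 0.41, Csf3r and Mmp8 by 1.21 each and Fpr1 by 0.79 ± 0.18. None of the 9 was lower, where 0.0827%, 7.19%, 0.691%, 1.16% and 2.39% of all genes were lower without reflux, under gastric, duodenal and mixed reflux and in the mean. With scan day as a block the mean differences of Retnlg and Mmp8 kept their call (2.05 and 1.42), and those of Csf3r, Fpr1, Ltf and S100a8 lost it (adjusted p = 0.0598, 0.282, 0.321 and 0.333).

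The gastric reflux calls rest on few arrays and are bound up with scan day. All wild-type gastric arrays were scanned on the second day and all Nrf2-/- ones on the third, so day and genotype cannot be told apart there without other groups. With day as a block the S100a8 difference was 1.79 (adjusted p = 0.79) and that of Ltf 2.28 (0.707). S100a8 lost its call without wild-type gastric replicate 2 or 3 or without Nrf2-/- gastric replicate 2, the array with discordant Xist (differences 2.38 to 2.80, adjusted p = 0.0765 to 0.114). Ltf lost its call on leaving out any array of wild-type gastric, duodenal or no reflux or of Nrf2-/- no reflux, Nrf2-/- gastric replicate 1 or 2, or Nrf2-/- duodenal replicate 1 or 3 (differences 1.73 to 2.29, adjusted p = 0.0571 to 0.128).

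The duodenal and mixed reflux arrays were all scanned on the third day, in both genotypes. With day as a block the duodenal differences of Retnlg, Csf3r and Mmp8 were 2.77, 1.72 and 1.57 and stayed past the threshold (adjusted p = 0.00238, 0.00451 and 0.00713). In a fit of the third day's arrays alone the differences were the same and did not pass (adjusted p = 0.0951, 0.121 and 0.138), nor did the 4 mixed reflux differences (0.0539 to 0.157). Leaving out any duodenal array kept the call for Retnlg. Csf3r lost it without any wild-type duodenal array or Nrf2-/- replicate 3 (adjusted p = 0.0573 to 0.071), and Mmp8 without any duodenal array of either genotype (0.0671 to 0.156). Under mixed reflux the Nrf2-/- group counts as 1 sample. Its tissue field alone reads epithelium, so label and genotype cannot be told apart there. Without wild-type mixed replicate 2 the differences there were 4.90 for Retnlg, 3.12 for Mmp8, 2.76 for Csf3r and 1.84 for Fpr1 (adjusted p = 8.32e-07, 0.000861, 0.00116 and 0.0355), and 6 genes were called. Fpr1 lost its call without any array of wild-type no or duodenal reflux or of Nrf2-/- no reflux, or without wild-type gastric 2 or 3, wild-type mixed 1 or 3, Nrf2-/- gastric 3, Nrf2-/- duodenal 1 or Nrf2-/- mixed 2 (adjusted p = 0.0513 to 0.125). In a fit of the 2 mixed reflux groups alone 0 of 9 were called (adjusted p = 0.184 to 0.245 for the 4).

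**Figure D2:**
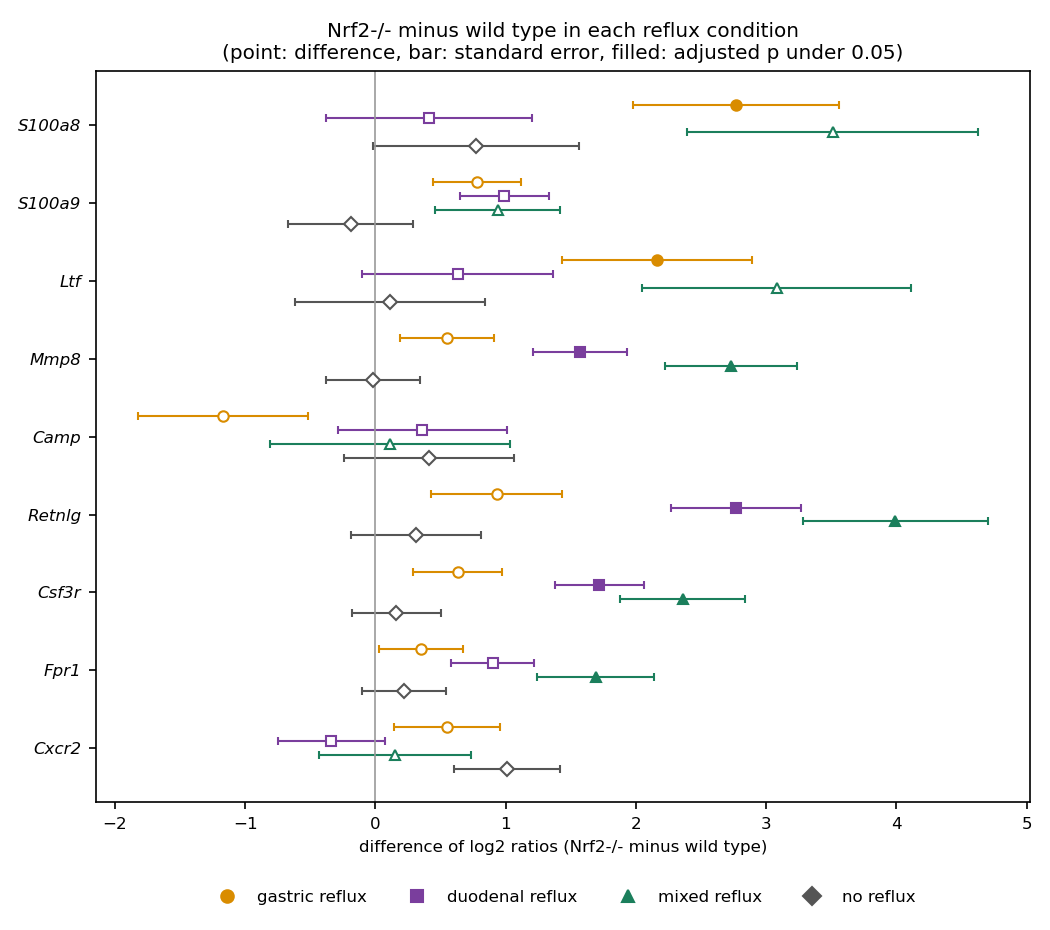
Difference of log2 ratios, Nrf2-/- minus wild type (horizontal axis), for the 9 tested genes in each reflux condition; points are fitted differences, bars standard errors, and filled symbols have an adjusted p under 0.05. Retnlg, Csf3r and Mmp8 lie to the right under duodenal and mixed reflux, S100a8 and Ltf lie near 0.41 and 0.63 under duodenal reflux and at 2.77 and 2.16 under gastric reflux, and no symbol without reflux is filled.

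With duodenal reflux 7 of 9 genes were higher than without reflux in Nrf2-/- mice, against 13.5% of all genes tested (median 2.5, against 0.08 over all genes): S100a8, S100a9, Ltf, Mmp8, Retnlg, Csf3r and Fpr1. Of the 9 genes, 3 were higher in the wild type, S100a8, Ltf and Csf3r, against 7.26% (median 1.25, against 0.08). With mixed reflux 6 of 9 were higher in Nrf2-/- mice, those of duodenal reflux without S100a9 (1.66 ± 0.48, adjusted p = 0.0627), against 3.43% (median 3.1, against 0.04). Only S100a8, 1 of 9, was higher in the wild type with mixed reflux, against 0.0438% (median 0.91, against 0.08). With gastric reflux 0 of 9 were called by limma in Nrf2-/- mice, where 0.584% of all genes were called in either direction, and 0 of 9 in the wild type, where 4.12% were; 3 and 1 had an unadjusted p under 0.05.

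In Nrf2-/- mice with gastric reflux the values without a call were 2.07 ± 0.73 for Ltf, 1.93 ± 0.79 for S100a8 and 0.85 ± 0.34 for S100a9 (adjusted p = 0.177, 0.24 and 0.233). Without wild-type mixed replicate 2, whose spread enters the shared error, 2 genes were called there. In the wild type S100a8 differed by -0.07 ± 0.79 with gastric reflux, and Ltf by 0.02 ± 0.73.

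Scan day bears on the reflux comparisons too. Wild-type duodenal and mixed reflux arrays share no scan day with the wild-type arrays without reflux. With day as a block 0 of 9 were called in the wild type, where S100a8 differed by 7.32 with duodenal (adjusted p = 0.279) and 3.89 with mixed reflux (1.00), while 6 were called with duodenal reflux in Nrf2-/- mice (Fpr1 lost) and 5 with mixed reflux, 4 of them among the 6 named (Ltf and Fpr1 lost). The wild-type mixed reflux call of S100a8 was 3.13 without wild-type mixed replicate 2 (adjusted p = 0.0127). It was lost without any array of wild-type no, gastric or duodenal reflux, Nrf2-/- no reflux replicate 1 or 2, or Nrf2-/- duodenal replicate 1 or 3 (adjusted p = 0.0551 to 0.2). Csf3r lost its wild-type duodenal call without wild-type duodenal replicate 2 or 3 (0.0632 and 0.0553), and Ltf its mixed reflux call in Nrf2-/- mice without Nrf2-/- no reflux replicate 2 (0.0524).

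**Figure D3:**
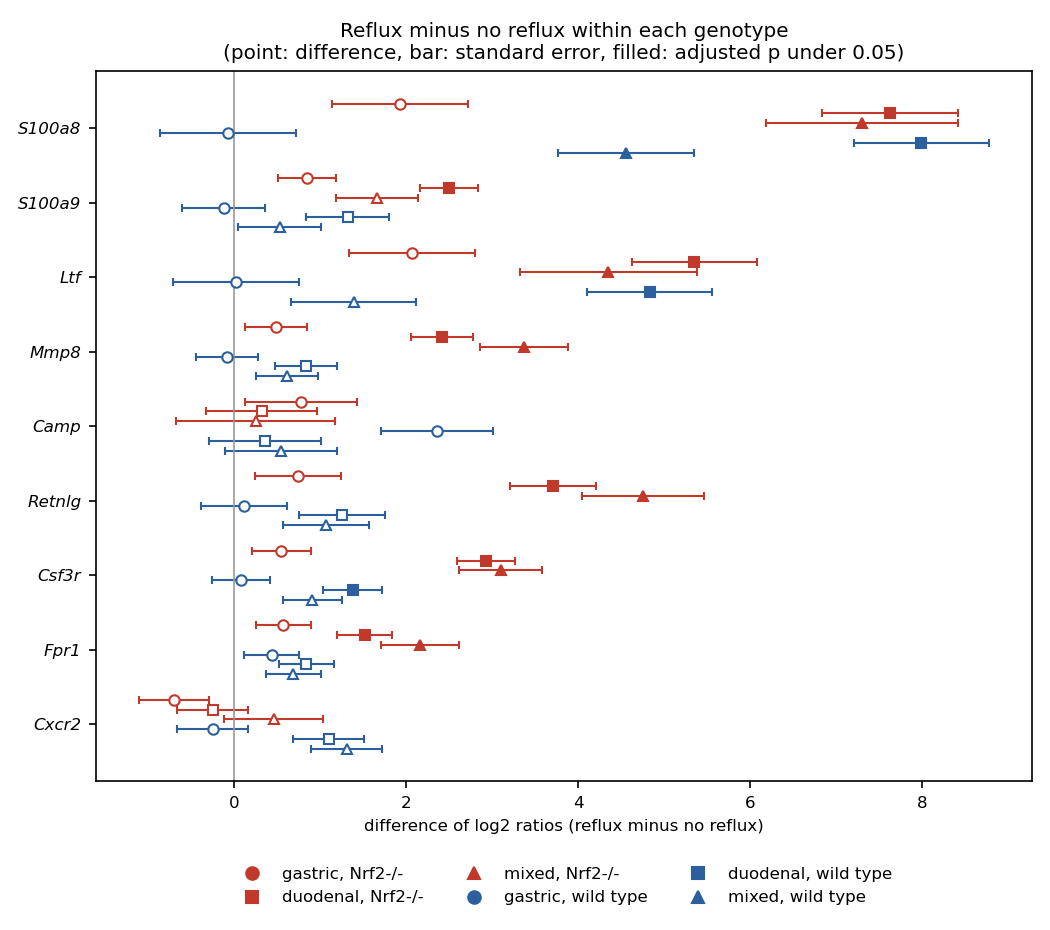
Difference of log2 ratios, reflux minus no reflux (horizontal axis), for the 9 tested genes in Nrf2-/- mice (red, upper) and wild-type mice (blue, lower); circles, squares and triangles are gastric, duodenal and mixed reflux, bars standard errors, and filled symbols have an adjusted p under 0.05. S100a8 and Ltf show like shifts with duodenal reflux in both genotypes, while Retnlg and Mmp8 reach 4.75 and 3.37 with mixed reflux in Nrf2-/- mice, against 1.07 and 0.62 in the wild type.

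Whether the reflux response itself depended on genotype (or, under mixed reflux, on the tissue label) was tested with an F test of 3 interaction terms. It called 2 of 9 genes, Retnlg (F = 8.40, adjusted p = 0.0393) and Mmp8 (F = 7.79, adjusted p = 0.0455), against 4.26% of all genes. The term for mixed reflux was positive and called for 2 of 9, against 0.939% of all genes: 3.68 ± 0.87 for Retnlg (adjusted p = 0.0438) and 2.74 ± 0.63 for Mmp8 (adjusted p = 0.0382). Csf3r had a term of 2.20 ± 0.59 for mixed reflux (adjusted p = 0.08). The duodenal terms of Retnlg, Mmp8 and Csf3r were 2.46 ± 0.71, 1.59 ± 0.51 and 1.56 ± 0.48 (adjusted p = 0.159, 0.203 and 0.188), and those of S100a8 and Ltf were -0.36 ± 1.12 and 0.52 ± 1.03 (adjusted p = 0.893 and 0.825). Without wild-type mixed replicate 2 the F test called 5 genes. On leaving out 1 of the other arrays it called 0 to 4. It called 0 without any Nrf2-/- no reflux or wild-type duodenal array, Nrf2-/- duodenal 1 or 3, wild-type gastric 2 or 3, wild-type mixed 1 or 3, or wild-type no reflux 1 or 2. With day as a block it called 0, and the mixed reflux terms were 3.7 for Retnlg and 2.09 for Mmp8 (adjusted p = 0.211 and 0.314).

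Between reflux types, 20 of 54 gene and comparison pairs were called, against 7.8% of all such pairs. Duodenal exceeded gastric reflux for 6 of 9 genes in Nrf2-/- mice, against 4.2% of all genes, from 1.65 ± 0.34 for S100a9 to 5.70 ± 0.79 for S100a8. Among wild-type mice it did so for 5 of 9 genes, against 13.8%, from 1.30 ± 0.34 for Csf3r to 8.05 ± 0.79 for S100a8 (adjusted p = 1.15e-05). The Ltf call in Nrf2-/- mice, 3.28 ± 0.73, was lost without Nrf2-/- gastric replicate 3 (adjusted p = 0.0552). Mixed exceeded gastric reflux for S100a8, Retnlg, Mmp8 and Csf3r in Nrf2-/- mice (5.38, 4.01, 2.88 and 2.56), 4 of 9 against 2.25%, and for S100a8 and Cxcr2 in the wild type (4.63 and 1.56), 2 of 9 against 6.34%. Mixed and duodenal reflux were not separated in Nrf2-/- mice for any of the 9 genes by limma (0 also at an unadjusted p under 0.05), where 0.0146% of all genes were called in either direction. In the wild type S100a8 and Ltf were lower with mixed than with duodenal reflux, by -3.42 ± 0.79 and -3.44 ± 0.73 (adjusted p = 0.027 and 0.0157), 2 of 9 against 1.76%. These became -4.85 and -4.79 without wild-type mixed replicate 2, and were lost without wild-type mixed replicate 1 or 3 or any wild-type duodenal array (adjusted p = 0.0618 to 0.179). With day as a block the 6 wild-type duodenal minus gastric calls were lost (adjusted p = 0.0575 to 0.582), as were the wild-type mixed minus gastric ones (0.693 and 0.699).

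The genes did not move as 1 block over the 22 samples, which share the reference RNA and an unequal Cy5 signal. As a description, Retnlg correlated with Mmp8 and Csf3r at 0.96 and 0.95, Csf3r with Mmp8 at 0.96, and S100a8 with Ltf at 0.95. Retnlg with S100a8 was at 0.81. Cxcr2 correlated with the others at 0.14 to 0.49 apart from Camp, and Camp with the others at -0.50 to 0.07. Each tested gene was centred and scaled over the samples, and the mean was compared with 20414 other genes measured in all or nearly all. The 8 whose ratios ran most like it were Il11 (r = 0.97), the chemokine gene Cxcl1, the lipopolysaccharide co-receptor Cd14 and the acute phase gene Saa1 (0.96 each), and Pxdc1, the stromelysin Mmp10, Nppb and the acute phase gene Saa3 (0.95 each).

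Genes in this and the next paragraphs come from lists of other genes, and their calls were not checked with scan day as a block. Wild-type differences of duodenal or mixed reflux from no reflux, and genotype differences under gastric reflux, carry the scan-day limit given above. Of all genes tested, 13.5% rose with duodenal reflux in Nrf2-/- mice and 7.26% in the wild type. Counts below stand beside these shares, and those for mixed reflux beside the ones given above. Ligands that recruit neutrophils followed the same groups. Of 9 measured in a list of CXCR2 ligands, Csf3, Csf2, Il17a and Il1b, 8 rose with duodenal reflux in Nrf2-/- mice (median 3.45) and 5 in the wild type (1.90), 8 with mixed reflux in Nrf2-/- mice (4.14) and 0 in the wild type (0.71). G-CSF (Csf3), the ligand of the Csf3r product, averaged 4.54 with duodenal reflux in Nrf2-/- mice and 0.11 without (a difference of 4.43 ± 0.39, adjusted p = 6.49e-06), and 3.23 against -0.01 in the wild type (3.24 ± 0.39, adjusted p = 0.000121). Cxcl3 was at least 15.2-fold higher with duodenal reflux in Nrf2-/- mice (4.54 ± 0.39) and at least 2.97-fold in the wild type (1.90 ± 0.39). Il1b rose by 5.97 ± 0.80 in Nrf2-/- mice and by 3.65 ± 0.80 in the wild type. Between genotypes 0, 1, 2 and 5 of the 9 were higher in Nrf2-/- without reflux and with gastric, duodenal and mixed reflux. The 1 under gastric reflux, a count near the 10.5% of all genes that were higher there, was Il1b (3.11 ± 0.80, adjusted p = 0.0164). Those under duodenal reflux, where 1.21% of all genes were higher, were Cxcl3 (2.16 ± 0.39, adjusted p = 0.00786) and Ppbp (2.67 ± 0.53, at least 5.75-fold). Under mixed reflux the 5 were Csf3, Cxcl1, Cxcl3, Cxcl2 and Ppbp, by 3.36, 3.26, 3.07, 2.04 and 3.42 in order of adjusted p.

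**Figure D4:**
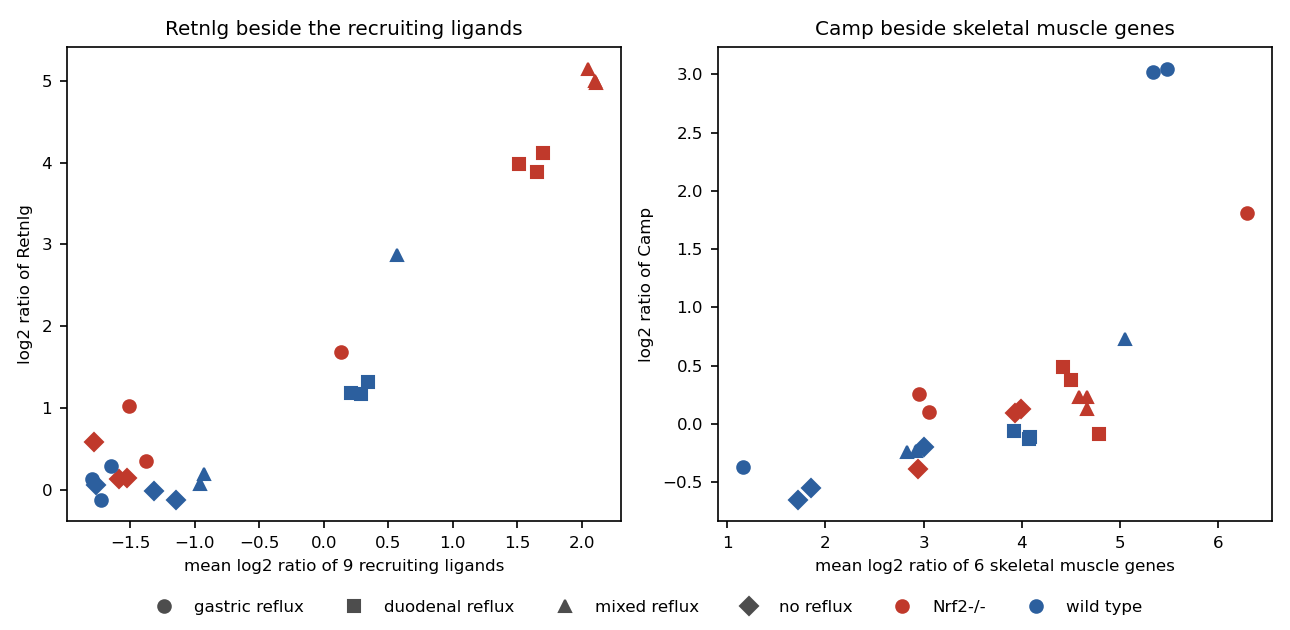
Left, log2 ratio of Retnlg against the mean log2 ratio of 9 neutrophil-recruiting ligands, and right, log2 ratio of Camp against that of 6 skeletal muscle genes, on each of the 24 arrays (red Nrf2-/-, blue wild type; symbols give the reflux). Retnlg is highest where the ligands are, with wild-type mixed reflux replicate 2 at 2.87 apart from its group, and the 3 arrays with Camp above 1 are those with the 3 highest skeletal muscle means, 5.34 to 6.29.

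Other granule genes moved with the tested ones in part. Of 10 measured, 5 rose with duodenal reflux in Nrf2-/- mice (median 1.13) and 4 in the wild type (0.78), and 4 with mixed reflux in Nrf2-/- mice (1.37), against 0 in the wild type (0.45). Lcn2, a siderophore-binding granule protein also made by epithelium, rose by 3.33 ± 0.44 with duodenal reflux in Nrf2-/- mice and 2.51 ± 0.44 in the wild type. Pglyrp1, a peptidoglycan-binding granule protein, rose by 3.72 ± 0.47 and 3.26 ± 0.47. Chil3, a chitinase-like protein of myeloid cells, rose by 6.11 ± 1.07 in the wild type. Hp, haptoglobin, was the gene of this list that rose with gastric reflux in both genotypes, by 4.14 ± 0.86 in Nrf2-/- mice and 3.45 ± 0.86 in the wild type (adjusted p = 0.0379 and 0.0358). The gelatinase Mmp9 was higher in Nrf2-/- than in wild-type mice under duodenal reflux (1.15 ± 0.27), where 1.21% of all genes were higher. Under mixed reflux Mmp9 (1.64 ± 0.38) and Lcn2 (2.33 ± 0.62) were higher, beside the share given above. Myeloperoxidase, Mpo, was the only gene of this list higher under gastric reflux (1.20 ± 0.27), a count near the 10.5% of all genes that were higher there.

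Of 23 other neutrophil receptor genes measured, 17 rose with duodenal reflux in Nrf2-/- mice (median 1.22) and 5 in the wild type (0.68), and 6 with mixed reflux in Nrf2-/- mice (1.08), against 0 in the wild type (0.49). Clec4d, a C-type lectin receptor, rose by 3.65 ± 0.60 and the Fc receptor Fcgr4 by 1.82 ± 0.30 with duodenal reflux in Nrf2-/- mice. Among 9 genes of the phagocyte oxidase and leukotriene synthesis, 5 rose with duodenal reflux in Nrf2-/- mice and 4 in the wild type. Padi4, the enzyme that citrullinates histones in neutrophils, rose by 2.28 ± 0.28 and 1.42 ± 0.28 in Nrf2-/- and wild-type mice.

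The 13 other S100 genes did not move as S100a8 and S100a9 did. With duodenal reflux 2 rose and 1 fell in Nrf2-/- mice (median 0.30), and 1 rose and 2 fell in the wild type (-0.08). The counts that rose are near the shares of all genes, 13.5% in Nrf2-/- mice and 7.26% in the wild type. Of all genes tested, 1296 of 20565 fell with duodenal reflux in Nrf2-/- mice and 627 of 20561 in the wild type. S100a11 rose by 0.91 ± 0.20 in Nrf2-/- mice, and S100a10 fell by 0.51 there and by 1.5 in the wild type. S100g was the gene that rose in the wild type, by 1.35 ± 0.25, and by 2.01 ± 0.25 with mixed reflux. It was above background on 0 wild-type arrays without reflux. Between genotypes S100g was lower in Nrf2-/- under duodenal and mixed reflux (-1.04 ± 0.25 and -2.05 ± 0.36), while S100a6 and S100a10 were higher under duodenal reflux (0.97 and 0.83). Under gastric reflux 5 were higher in Nrf2-/- than in wild-type mice, against 10.5% of all genes. S100a11, S100a14, S100a3 and S100a5 were among them (1.29, 1.19, 1.14 and 0.71). Of 5 alarmin receptor and other alarmin genes measured, Tlr4, a receptor of S100A8 and S100A9, was lower with duodenal reflux. It differed by -0.70 ± 0.19 in Nrf2-/- mice and -0.67 ± 0.19 in the wild type. Hmgb1 was higher with duodenal reflux in Nrf2-/- mice (0.73 ± 0.20). Under gastric reflux Cd36 was lower in Nrf2-/- than in wild-type mice (-1.65 ± 0.44) and Il33 higher (0.85 ± 0.24). There 7.19% of all genes were lower and 10.5% higher. Cd36 rose with gastric reflux in the wild type (2.29 ± 0.44).

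Markers of other cell types differed in which groups they moved with. Their counts with duodenal reflux stand beside the 13.5% of all genes that rose in Nrf2-/- mice and 7.26% in the wild type. Those that fell stand beside 1296 of 20565 genes in Nrf2-/- mice and 627 of 20561 in the wild type. All 4 wounded keratinocyte genes rose with duodenal reflux in Nrf2-/- mice and 3 of 4 in the wild type. Krt16, a stress keratin, rose by 4.40 in each (± 0.47), and was higher in Nrf2-/- than in wild-type mice under gastric reflux (2.19 ± 0.47, adjusted p = 0.00746). The mean ratio of these 4 genes ran from 3.73 to 4.13 in Nrf2-/- gastric, 5.06 to 6.21 in Nrf2-/- duodenal, 4.80 to 4.86 in Nrf2-/- mixed reflux and 2.71 to 3.47 in Nrf2-/- no reflux. The wild-type ranges were 2.40 to 3.17 with gastric, 4.74 to 4.98 with duodenal and 3.37 to 4.56 with mixed reflux, and 2.38 to 2.89 without reflux. With mixed reflux in Nrf2-/- mice 1 of the 4 wounded keratinocyte genes was called, and 0 of the T and NK cell or macrophage genes by limma (3 and 2 at an unadjusted p under 0.05). Of 8 T and NK cell genes, 4 rose with duodenal reflux in Nrf2-/- mice and 5 in the wild type, and of 12 macrophage and monocyte genes 3 rose in Nrf2-/- mice, while 2 rose and 1, Cd163, fell in the wild type (-2.97 ± 0.31). Cd163 was the macrophage gene that differed between genotypes under duodenal reflux (3.52 ± 0.31). Of 5 smooth muscle genes, Cnn1 and Tagln were lower in Nrf2-/- than in wild-type mice under mixed reflux (-2.41 ± 0.40 and -2.33 ± 0.43), where the tissue label is epithelium. The same genes, Cnn1 and Tagln, were lower than without reflux with mixed reflux in Nrf2-/- mice (-2.26 each) and with duodenal reflux in the wild type (-1.9 and -1.84). Of 6 squamous keratinocyte genes 4 rose and 1 fell with duodenal reflux in Nrf2-/- mice (median 1.14), against 0 called in the wild type (0.19). Of 4 eosinophil genes, Siglecf and Ccr3 were higher with mixed reflux in Nrf2-/- mice (1.12 ± 0.24 and 0.92 ± 0.23), and 0 of 5 B cell genes were called in any genotype or reflux comparison with no reflux. The mean ratios of skeletal muscle genes ran from 1.16 to 6.29 over all arrays, with 0 of 6 called in these comparisons. The part of these cell types in the results above was not tested.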

How the data were processed

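RNA of dissected oesophagi (Cy5) was hybridised with a common reference RNA (Cy3) on 24 Agilent 2-colour arrays, with no dye swap, per the labels' protocols. The deposited scanner files hold spot intensity, background and flags; per the file headers the scanner software was 10.5.1.1, with probe positions on mm7, for the 2 arrays of slide 1, and 10.7.3.1 with mm9 for the other 22, and version 9.1 of Agilent Feature Extraction stands in the submitters' processing notes. The deposited value table holds log2 values by the authors, with a normalization not given in the sources used here; its slope on the scanner's log10 ratio was 2.68 to 3.14, its column medians 0 to 0.069, and its direction the same. The scanner's own log10 ratio, per the file headers, served as an alternative.

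Mean Cy5 and Cy3 signals were corrected with normexp (offset 50) and loess in limma 3.58.1 (R 4.3.3), with 1639 control spots at weight 0. Spots marked as outliers were left out: 13% and 11.8% on the slide 1 arrays and 0.293 to 0.659% on others. Repeat spots were averaged, and a gene was taken from its brightest passing probe. The filter kept probes whose Cy5 signal was well above background throughout 1 or more groups. Accessions named 26918 of 41174 probes, current symbols 5082 and older symbols 817, while 8357 stayed under their array name.

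All groups entered 1 limma fit of 22 samples (14 residual degrees of freedom), with Benjamini-Hochberg adjustment over all genes at 0.05; the number of arrays limits the precision. Nothing beyond the word biological says that replicates are separate animals, so p-values measure the spread between these samples. The test was checked on simulated data. Genes named outside the 10 come from lists written for this work, chosen among the called by smallest p, not by size of change; members and lists were chosen with earlier results of these data known. Same-numbered arrays did not deviate together (median correlation 0.01, -0.65 to 0.57 over 84 pairs), so numbers were not used as pairs. Alternatives changed the background correction, normalization, filter, probe rule, samples and blocks. Promoters are from RefSeq.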

Additional observations from a re-analysis of the deposited data

Results flagged for a closer look

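The reflux response of 2 genes differed between genotypes by the test of the interaction itself. For mixed reflux, the response in Nrf2-/- mice exceeded that in the wild type by 3.68 ± 0.87 for Retnlg and by 2.74 ± 0.63 for Mmp8 on the log2 scale (limma, adjusted p = 0.0438 and 0.0382). The Nrf2-/- mixed reflux arrays counted as 1 sample. Only their tissue field reads epithelium, so this label and the genotype cannot be told apart in the mixed reflux term. Both genes were well above background on 0 of 3 arrays without reflux in each genotype. Both passed the filter only through the groups where they are high. With scan day as a block both calls were lost (adjusted p = 0.211 and 0.314). Without wild-type mixed replicate 2 the terms were 4.59 and 3.14 (adjusted p = 2.72e-05 and 0.00715). Both calls were lost without any wild-type duodenal or Nrf2-/- no reflux array, wild-type no reflux 1 or 2, wild-type gastric 2 or 3, wild-type mixed 1 or 3, or Nrf2-/- duodenal 1, and that of Retnlg also without wild-type no reflux 3 or Nrf2-/- duodenal 3 (adjusted p = 0.0519 to 0.103).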

How the results depend on the processing

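Over 40 other settings the 54 called results gave 2130 values, of which 1850 kept their call, 278 lost it and 2 turned sign, both in the authors' deposited value table: Csf3r with duodenal reflux in the wild type (-0.33) and with duodenal minus gastric reflux there (-0.91). The cause was not tested. Counts below are of the 9 genes called. Genotype without reflux gave 1 with local backgrounds as read, against 0. Genotype under gastric reflux, 2 in the report, gave 1 with local backgrounds as read, no filter, the mean of probes or without slide 1, and 0 with median centring, only its groups, or day or slide as a block. Genotype under duodenal reflux, 3, gave 1 in the deposited table and 0 with median centring, the scanner's ratio or scan day 3 alone. Genotype under mixed reflux, 4, gave 7 with the Nrf2-/- mixed arrays as 3 samples, and 0 with the scanner's ratio, the deposited table, only its groups or day 3. The genotype mean, 6, gave 2 in the deposited table and with the day block. In Nrf2-/- mice duodenal reflux, 7, gave 1 with day 3 alone, and mixed reflux, 6, gave 3 with the scanner's ratio, 2 in the deposited table and 0 with day 3. In the wild type gastric reflux, 0, gave 1 with local backgrounds as read, outlier spots kept, the mean of probes, 3 mixed samples, or without the Nrf2-/- arrays of low Cy5 signal. Wild-type duodenal reflux, 3, gave 5 with local backgrounds as read or the deposited table, 6 with the scanner's ratio or without the low Cy5 arrays, 8 with only its groups and 0 with the day block. Wild-type mixed reflux, 1, gave 2 with local backgrounds as read, and 0 with median centring, no filter, only its groups, day or slide as a block, or without slide 1. Reflux types, 20, gave 11 in the deposited table and 13 with the day block. The F test, 2, gave 4 with local backgrounds as read, 3 mixed samples or without the low Cy5 arrays, 1 with no filter, and 0 with no background correction, median centring, the scanner's ratio, the deposited table, day or slide as a block, or without slide 1. Leaving out 1 array gave 0 to 3 for genotype under gastric, 1 to 4 under duodenal and 3 to 6 under mixed reflux, 0 without reflux and 5 to 7 for the mean. It gave 0 to 2, 7 and 5 to 7 for gastric, duodenal and mixed reflux in Nrf2-/- mice, 0 to 1, 2 to 5 and 0 to 1 in the wild type, 16 to 27 for reflux types and 0 to 5 for the F test. The settings without slide 1 and without the low Cy5 arrays were chosen after seeing the data. Median centring moved the median genotype difference of all genes under gastric reflux to -0.06, against 0.11, and that of mixed reflux in the wild type to 0.22, against 0.08. Dim signal limits Retnlg, Csf3r, Mmp8 and Camp most, which were well above background on 10 to 12 of 24 arrays.

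With the replicate number as a block, 2, 3 and 6 genes were called between genotypes under gastric, duodenal and mixed reflux, 0 without reflux and 7 for the mean. The block gave 0, 7 and 7 for gastric, duodenal and mixed reflux in Nrf2-/- mice, 1, 3 and 1 in the wild type, 24 for reflux types and 3 for the F test. Of 24 arrays, 7 correlated best with their own number.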
